A study of Mus musculus with 2 samples.

Results

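The nuclear envelope of the neutrophil was described here by 8 genes: Lbr, Lmna, Lmnb1, Lmnb2, Sun1, Sun2, Syne1 and Emd. These genes were listed by name, with earlier results of these data known. They were read on every probe set that the platform annotation assigned to 1 of these genes alone, which gave 18 probe sets out of 34958 with 1 gene and 45101 in all. No probe set shared between several genes named any of the 8. The cells were neutrophils with high Gr-1 staining and no CD48, taken live by flow cytometry from the marrow of C57BL/6 mice, without treatment, in 2 independent experiments. Each experiment gave 1 expression array, called replicate 1 and replicate 2, so the study holds 1 group of 2 samples. The age and number of the mice, and any pooling of animals, are not stated.

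The nuclear envelope is a double membrane lined on its inner face by the lamina, a mesh of A-type and B-type lamin filaments that gives the nucleus its stiffness. Proteins of the inner membrane, such as the lamin B receptor and emerin, tie chromatin and lamina to the membrane, and SUN proteins reach across the gap between the membranes to nesprins, which hold the cytoskeleton. Mature neutrophils have a lobed nucleus, ring-shaped in the mouse. The lamin B receptor is needed for that shape: mice of the ichthyosis strain, which lack it, and people with the Pelger-Huët anomaly, who carry changes in the human gene, have neutrophils with poorly lobed nuclei. Granulocytes are also known for little lamin A/C, which has been linked to the ease with which they squeeze through narrow gaps.

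The 250 bases before an annotated transcription start are given for Lbr, Sun2 and Lmna, picked as examples by their signals. Lbr and Sun2 each had a bright probe set, and the probe sets of Lmna were mostly dim. The other Sun2 probe set had 448 on replicate 1 and 551 on replicate 2. Syne1 also had a bright probe set (7665 and 7299), and its windows are not printed. The sequences are from RefSeq (build GRCm38.p6), run 5′ to 3′ on the gene's strand and end at the base before the start. Capitals mark a GC box (GGGCGG) or a CCAAT box (CCAAT) on either strand, and where boxes touch or overlap the capitals run together. All 4 windows lie on the minus strand: Lbr at chr1:181842402-181842651, Sun2 at chr15:79742537-79742786, and the Lmna starts at chr3:88503353-88503602 (upstream) and chr3:88493313-88493562 (downstream). The Lbr and Sun2 windows adjoin the 5′ end of the annotated gene, while both Lmna windows lie inside the gene, whose annotated 5′ end is at 88509932.
Lbr: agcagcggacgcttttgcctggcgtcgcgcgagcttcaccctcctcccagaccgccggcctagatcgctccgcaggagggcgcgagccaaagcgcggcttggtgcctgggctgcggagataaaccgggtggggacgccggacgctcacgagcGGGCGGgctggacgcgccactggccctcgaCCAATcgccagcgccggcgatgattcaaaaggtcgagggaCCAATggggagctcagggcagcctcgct
Sun2: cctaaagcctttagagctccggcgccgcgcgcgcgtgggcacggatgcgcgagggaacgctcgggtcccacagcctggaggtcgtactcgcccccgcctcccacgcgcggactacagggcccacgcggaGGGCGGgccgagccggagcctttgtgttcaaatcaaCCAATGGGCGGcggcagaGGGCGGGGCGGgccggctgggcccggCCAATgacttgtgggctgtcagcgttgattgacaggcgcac
Lmna, upstream start: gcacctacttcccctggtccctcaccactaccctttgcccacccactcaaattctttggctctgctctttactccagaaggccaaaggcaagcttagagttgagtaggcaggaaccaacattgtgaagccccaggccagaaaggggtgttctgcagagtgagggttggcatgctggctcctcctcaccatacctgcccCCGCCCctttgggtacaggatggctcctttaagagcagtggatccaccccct
Lmna, downstream start: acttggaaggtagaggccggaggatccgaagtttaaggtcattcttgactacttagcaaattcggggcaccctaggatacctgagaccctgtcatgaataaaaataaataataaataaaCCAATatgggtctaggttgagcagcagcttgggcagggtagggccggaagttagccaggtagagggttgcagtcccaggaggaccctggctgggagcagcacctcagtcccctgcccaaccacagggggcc

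The Lbr window held 1 GC box and 2 CCAAT boxes, and the Sun2 window held 4 GC boxes, overlaps counted, and 2 CCAAT boxes. The upstream Lmna window held 1 GC box and no CCAAT box, and the downstream one held no GC box and 1 CCAAT box. RefSeq windows were used for 7 of the 8 genes, 12 windows in all because Lmna, Lmnb2, Sun1 and Syne1 have several annotated starts. Windows on chromosome 18, where Lmnb1 lies, were left out of the member windows, so Lmnb1 is missing from the counts below. The windows of all genes were not limited in this way. A GC box was in 7 of these 12 windows, against 32.7% of all 32851 windows of the same length, and a CCAAT box in 6 of 12, against 33.8%. The TATA box (TATAAA) was in 2 of 12, against 12.4% of all windows. The letters of the PU.1 core (GAGGAAGT) and of the C/EBP core (TTGCNNAA), both binding sites of myeloid transcription factors, were in none of the 12 on either strand, against 2.44% and 9.56% of all windows. The share of G and C ran from 38.8% to 70.8% over the 12 windows, and Lbr had 69.6%, against a median of 52.4% over all windows. These matches describe the letters of the windows, and which start the neutrophils use was not measured.

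Signals are the authors' MAS5 intensities on a linear scale. Background was taken from 87 probe sets of 78 sensory receptor genes (olfactory, vomeronasal, trace amine and taste receptors), whose 95th percentile was 108 on replicate 1 and 131 on replicate 2. Probe sets brighter than this limit on both arrays were called above background, and so was any gene with at least 1 such probe set. Of the 18 nuclear envelope probe sets, 12 (66.7%) were above background, against 35.5% of all probe sets with 1 gene. Of the 8 genes, 7 (87.5%) were above it, against 40.4% of all 18194 genes. The exception was Lmnb2. Probe sets bind their targets with different strength. The background call sets each probe set beside those of other genes and makes no allowance for this. Sums over lists and the choice of probe sets nearest in level make none either. Beyond these uses, signals of different genes or probe sets were compared only to pick the windows printed above and the brightest probe set of each gene.

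**Figure D1:**
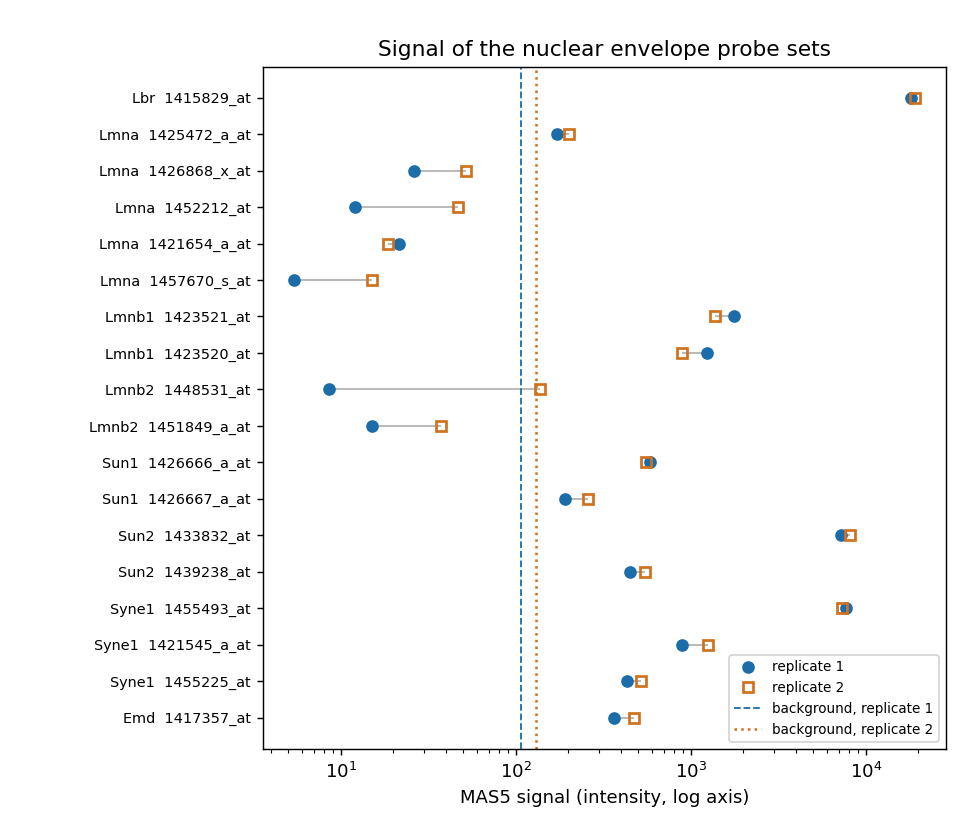
MAS5 signal (log axis) of the 18 probe sets of the 8 nuclear envelope genes, with a filled circle for replicate 1 and an open square for replicate 2. The vertical lines are the background of each array, 108 on replicate 1 and 131 on replicate 2. The probe sets of Lbr, Lmnb1, Sun1, Sun2, Syne1 and Emd lie to the right of both lines, as does 1 of 5 for Lmna, and those of Lmnb2 lie to the left except the replicate 2 value of 1448531_at.

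The lamin B receptor gene was bright on both arrays. Lbr encodes a protein of the inner nuclear membrane whose amino-terminal part binds B-type lamins and heterochromatin and whose membrane part is a sterol reductase. It lies on chromosome 1 (181815315 to 181842401) and was read by a single probe set, 1415829_at. Its signal was 18081 on replicate 1 and 19032 on replicate 2, or 168 and 145 times the background of the same array. The mean was 18556 ± 673 (SD, n = 2). The arrays differed by -0.074 on the log2 scale, replicate 1 minus replicate 2, and the sign turned under median scaling (0.055), quantile normalization (0.018) and scaling to the hybridisation controls (0.65).

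The B-type lamin genes differed in whether they could be detected. Lmnb1, which encodes lamin B1 and lies on chromosome 18, was above background on both of its probe sets. Its probe set 1423521_at had signals of 1760 (replicate 1) and 1372 (replicate 2), and 1423520_at had 1239 and 889. Both were higher on replicate 1, by 0.36 and 0.48 on the log2 scale. At the gene's brightest probe set this direction held under every scaling tried, at 0.49 with median scaling, 0.31 with quantile normalization and 1.08 with scaling to the hybridisation controls.

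Lmnb2, which encodes lamin B2 (chromosome 10, 80901363 to 80918245), was not above background on both arrays at either probe set. Probe set 1448531_at had 8.63 on replicate 1, where 63 of the 87 sensory receptor probe sets were at least as bright. It had 138 on replicate 2, or 1.05 times that array's background, where 4 of the 87 were at least as bright. Probe set 1451849_a_at had 15.1 and 37.4, below background on each array. The replicate 1 value of 1448531_at only says that it was below background. On the deposited scale its replicate 2 signal was 1.28 times the replicate 1 background, the limit for a call on that array. The backgrounds themselves differed, at 108 on replicate 1 and 131 on replicate 2, so this ratio holds their difference as well. It was 1.17 with median scaling and 1.18 with quantile normalization. With scaling to the hybridisation controls the replicate 2 signal was 107, under the replicate 1 background of 138, and no fold can be given. Proliferation genes were also higher on replicate 2. Of 17 measured genes 8 (47.1%) were above background, near the 40.4% of all genes. All 8 were higher on replicate 2 (7 of 8 with scaling to the hybridisation controls), against 56.3% of all genes above background on the deposited scale. The summed signal of the 17 proliferation genes was 2529 on replicate 1 and 10479 on replicate 2. Their part in the Lmnb2 value was not tested.

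Lmna, the gene of lamins A and C (chromosome 3, 88481148 to 88509932), had 5 probe sets, of which 1 was above background. That probe set, 1425472_a_at, had signals of 172 (replicate 1) and 202 (replicate 2), which is 1.60 and 1.54 times the background of each array, and 1 and 2 sensory receptor probe sets were at least as bright. The other 4 probe sets, 1426868_x_at, 1452212_at, 1421654_a_at and 1457670_s_at, lay between 5.43 and 26.2 on replicate 1 and between 15.1 and 52.0 on replicate 2. These values are within the range of the sensory receptors, whose medians were 25.6 and 27.3. Lmna was therefore called from 1 probe set near the limit, and it was not above background with the 99th percentile of the sensory receptors as the limit, with genes of other organs as the background, or with the mean of its 5 probe sets. Which of the lamin A and lamin C transcripts each probe set reads is not known from the annotation used. Among the 9012 genes with at least 2 probe sets, 35.6% had probe sets that disagreed on the call, and of the 6 nuclear envelope genes with several probe sets Lmna alone did.

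The genes of the bridge between nucleus and cytoskeleton were above background on all 7 of their probe sets. Sun1 and Sun2 encode the SUN proteins of the inner membrane, and Syne1 encodes nesprin-1, a very long spectrin-repeat protein of the outer membrane whose long forms bind actin. Sun2 (chromosome 15, 79724068 to 79742536) had signals of 7260 (replicate 1) and 8115 (replicate 2) at 1433832_at, and of 448 and 551 at 1439238_at. Both Sun2 probe sets were brighter on replicate 2, by 1.12-fold and 1.23-fold: the log2 differences were -0.16 and -0.30, and that of 1433832_at turned to 0.56 with scaling to the hybridisation controls.

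Sun1 (chromosome 5, 139200564 to 139249839) had 581 and 558 at 1426666_a_at and 192 and 259 at 1426667_a_at, on replicates 1 and 2. On the deposited scale its log2 differences were 0.058 and -0.44, the first close to no difference. With scaling to the hybridisation controls that of 1426666_a_at was 0.78. Syne1 (chromosome 10, 5020192 to 5550692) had 7665 and 7299 at 1455493_at, 896 and 1249 at 1421545_a_at, and 433 and 520 at 1455225_at. The brightest Syne1 probe set was higher on replicate 1 by 0.071, a sign that turned with quantile normalization (-0.030). It was 0.79 with scaling to the hybridisation controls. The other 2 were higher on replicate 2 on the deposited scale, with differences of -0.48 and -0.26. Scaling to the hybridisation controls moves every Sun1 and Syne1 probe set by the same amount towards replicate 1. The brightest probe set of either gene stayed higher on replicate 1 with it. The directions of the other probe sets are given for the deposited scale alone. Syne1 has many transcripts from several starts over 530501 bases, and the transcript behind each probe set is not known from the annotation used.

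Emd encodes emerin, a LEM-domain protein of the inner membrane that binds lamins and the chromatin protein BAF. The gene lies on chromosome X (74254674 to 74261563) and had a single probe set, 1417357_at, with signals of 365 (replicate 1) and 471 (replicate 2), or 3.39 and 3.59 times background. It was higher on replicate 2 by 1.29-fold, a log2 difference of -0.37 that kept its sign with median scaling (-0.24) and quantile normalization (-0.34) and turned with scaling to the hybridisation controls (0.35).

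Between the experiments 0 of the 7 genes above background differed over 2-fold at the brightest probe set, against 5.4% of all 7354 genes above background, so that 0 of 7 is near the share of all genes. The count was 1 with scaling to the hybridisation controls (Lmnb1, 1.08). It was also 1 without the filter on background, which takes in Lmnb2 (-4.00). Of the 7 genes 3 were higher on replicate 1, against 43.7% of all genes above background, and 4 on replicate 2, against 56.3%. Their median difference was -0.074, and that of all genes above background was -0.072. Their median absolute difference was 0.16, against 0.30 for all genes, and the largest was 0.37 (Emd), a size that 40.2% of all genes above background exceeded. Scaling to the hybridisation controls moved the median of the 7 genes to 0.65 and that of all genes above background to 0.65, and median scaling moved them to 0.055 and 0.058. The hybridisation controls shift every probe set by the same amount, and with them all 7 genes were higher on replicate 1. Relative to the median of all genes, 3 of the 7 were over it and 4 under it on the deposited scale and under both of these scalings, and 4 and 3 after quantile normalization. Each difference rests on a single array per experiment, so no replicate check or p-value goes with it.

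At the level of probe sets, the spread to be set beside a difference was taken as the SD of the difference over the 1000 probe sets above background that were nearest in level. It ran from 0.45 to 0.53 for the 12 nuclear envelope probe sets above background. On the deposited scale the differences of 10 of the 12, taken from 0, were within 1 such SD. The remaining pair, 1423520_at of Lmnb1 (0.48) and 1421545_a_at of Syne1 (-0.48), were just beyond it, in opposite directions. No allowance was made for the median difference of all genes above background (-0.072), so the count and the directions are given for the deposited scale alone.

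**Figure D2:**
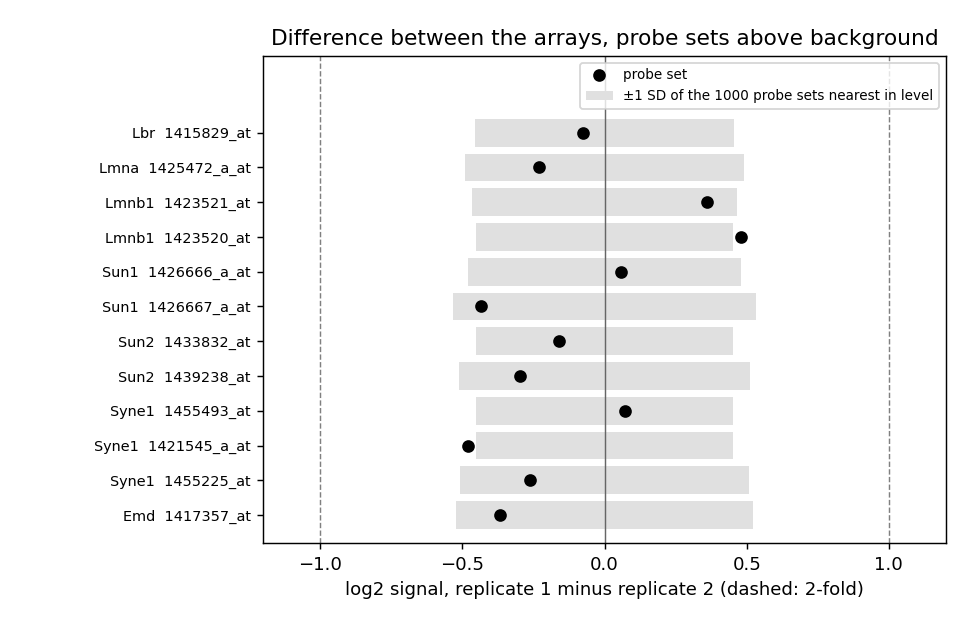
Difference in log2 signal, replicate 1 minus replicate 2, of the 12 nuclear envelope probe sets above background (points), with grey bars for ±1 SD of the difference over the 1000 probe sets nearest in level and dashed lines at a 2-fold difference. On the deposited scale the points run from -0.48 to 0.48, 8 of them below 0 and 4 above, and both Lmnb1 probe sets are on the right.

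Other genes of the same compartment were read from further lists. Of 17 other nuclear envelope genes 13 (76.5%) were above background, against 40.4% of all genes. Tmpo, the gene of the LAP2 family of lamin-binding proteins, had signals of 3004 (replicate 1) and 2548 (replicate 2) at its brightest probe set, and Syne2, which encodes nesprin-2, had 210 and 418. The 4 genes that were not above background were Syne3 (nesprin-3, 79.5 and 93.3), Lemd2 (a LEM-domain protein, 248 and 111), Sun3 (7.87 and 45.3) and Syne4 (nesprin-4, 144 and 32.0). Lemd2 and Syne4 exceeded the background of replicate 1 alone. Of the 13 genes above it, 9 lay over the median difference of all genes and 4 under it, under every scaling tried (median log2 difference -0.018 on the deposited scale), and 1 differed over 2-fold, being higher on replicate 2. That gene, Banf1, which encodes BAF, was named after its values were seen (234 and 523). With scaling to the hybridisation controls Banf1 was within 2-fold and 4 genes, Lemd3, Ankle2, Tmem43 and Tmem201, also named after their values were seen, were over 2-fold higher on replicate 1.

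Prelamin processing genes act on the carboxy-terminal tail of lamins, which is farnesylated, cut and methylated. Of 5 measured genes 4 (80%) were above background, against 40.4% of all genes. All 4 were higher on replicate 2 on the deposited scale (median log2 difference -0.29), and 1 of the 4, Zmpste24, was so with scaling to the hybridisation controls. Zmpste24, the protease that cuts prelamin A, had signals of 1368 (replicate 1) and 5441 (replicate 2), 3.98-fold higher on replicate 2, read on 1 probe set. Icmt, the carboxyl methyltransferase, had 282 and 304, Rce1, the CaaX protease, 220 and 276, and Fnta, the farnesyltransferase alpha subunit gene, 1147 and 1370. Fntb, the gene of the beta subunit, was below background with 71.7 and 115.

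Nuclear pore genes were above background in 16 of 25 (64%), against 40.4% of all genes. Nup153, a protein of the pore basket, had signals of 1495 (replicate 1) and 1507 (replicate 2), and Nup98 had 910 and 711. Nup210, a membrane protein of the pore, had 80.3 and 428, and Nup37, of the pore scaffold, 60.7 and 182, both above the background of replicate 2 alone. Of the 16 genes above background, 8 lay over the median difference of all genes and 8 under it (median log2 difference -0.22 on the deposited scale), and 7 and 9 after quantile normalization. On the deposited scale 3 were over 2-fold higher on replicate 2: Nup54 (277 and 586), Nup62 (504 and 1050) and Nup160 (143 and 440). With median scaling Nup160 alone was. With scaling to the hybridisation controls 3 others, Nup50, Nup98 and Ranbp2, were over 2-fold higher on replicate 1. Of these 6 genes all but Nup98 were named after their values were seen.

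Lbr has a chromatin side and a sterol side, and lists were read for both. Of 9 measured heterochromatin genes 6 (66.7%) were above background, against 40.4% of all genes. Their median log2 difference was -0.26 on the deposited scale. Relative to all genes, 2 of the 6 lay over the median difference and 4 under it. Among the heterochromatin protein 1 genes, whose products the lamin B receptor is known to bind, Cbx1 had signals of 364 (replicate 1) and 418 (replicate 2), Cbx5 had 116 and 103, and Cbx3 had 49.9 and 65.3. Cbx1 was above background on both arrays, Cbx5 on replicate 1 alone and Cbx3 on neither. Cbx3 was read on 1 probe set of its own, and Cbx1 and Cbx5 on 5 each. Trim28, a corepressor, had 674 and 600, and the histone methyltransferase gene Suv39h2 was below background with 12.5 and 13.8.

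Of 11 measured genes of late sterol synthesis 8 (72.7%) were above background, against 40.4% of all genes. Their median log2 difference was -0.30 on the deposited scale. Relative to all genes, 2 of the 8 lay over the median difference and 6 under it. Tm7sf2, which encodes the other enzyme that can carry out the sterol reduction step of the lamin B receptor, had signals of 148 (replicate 1) and 108 (replicate 2) and was above the background of replicate 1 alone. Cyp51, whose product acts just before that step, had 106 and 107, and Dhcr7, the last enzyme on the way to cholesterol, had 32.2 and 23.5, below background on both arrays. Msmo1, a methylsterol oxidase gene, had 1170 and 1487.

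**Figure D3:**
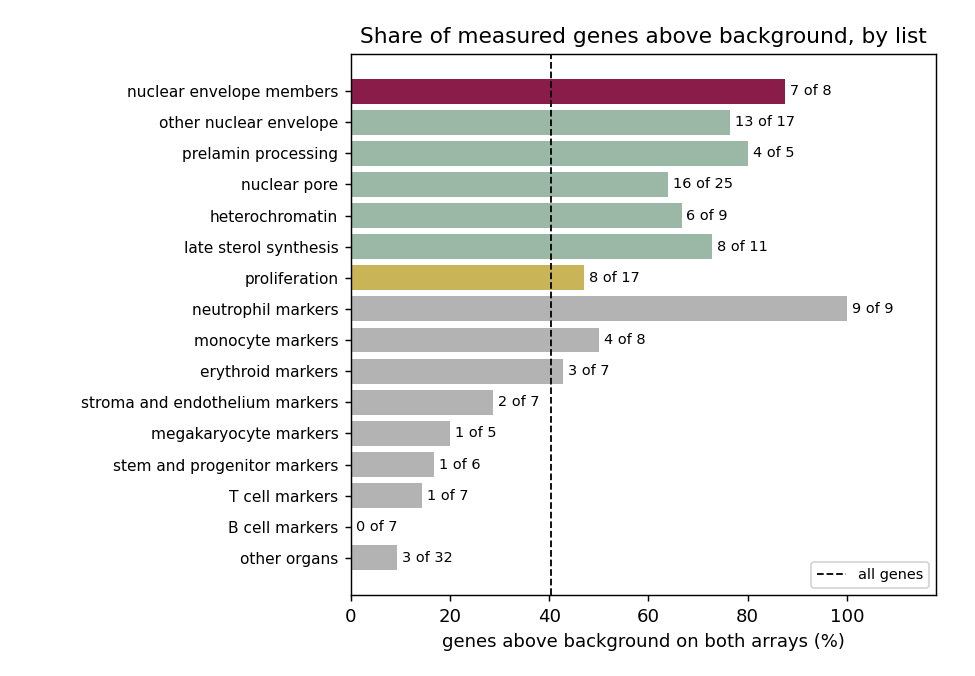
Percentage of the measured genes of each list above background on both arrays, with the numbers at the bar ends and the share over all genes (40.4%) as a dashed line. The nuclear envelope members stand at 7 of 8, neutrophil markers at 9 of 9, B cell markers at 0 of 7 and genes of other organs at 3 of 32.

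Both arrays carried the markers of the sorted cell type. Mean brightness, with 2% of probe sets trimmed at either end, was the same on both arrays, and the number of arrays, 2, limits the precision. All 9 measured neutrophil markers were above background, with a summed signal of 212515 on replicate 1 and 311447 on replicate 2. Replicate 1 was the higher array for 2 of the 9 and replicate 2 for 7. After quantile normalization these counts were 5 and 4, and scaling to the hybridisation controls made them 6 and 3. Among markers of other marrow cells, 4 of 8 monocyte, 3 of 7 erythroid, 2 of 7 stroma and endothelium, 1 of 7 T cell, 1 of 5 megakaryocyte, 1 of 6 stem and progenitor and 0 of 7 B cell genes were above background. The share over all genes was 40.4%, near that of the erythroid (42.9%) and monocyte (50%) markers. The summed signal of the monocyte markers was 6735 on replicate 1 and 3129 on replicate 2, and that of the B cell markers 327 and 763. The receptor gene Csf1r alone gave 5020 and 1928 of the monocyte sum, and the B cell sum holds no gene above background on both arrays. Their part in the nuclear envelope values was not tested. In bulk RNA, fewer cells of a type and less RNA per cell cannot be told apart, and the arrays come from different experiments, so array and experiment cannot be told apart either.

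**Figure D4:**
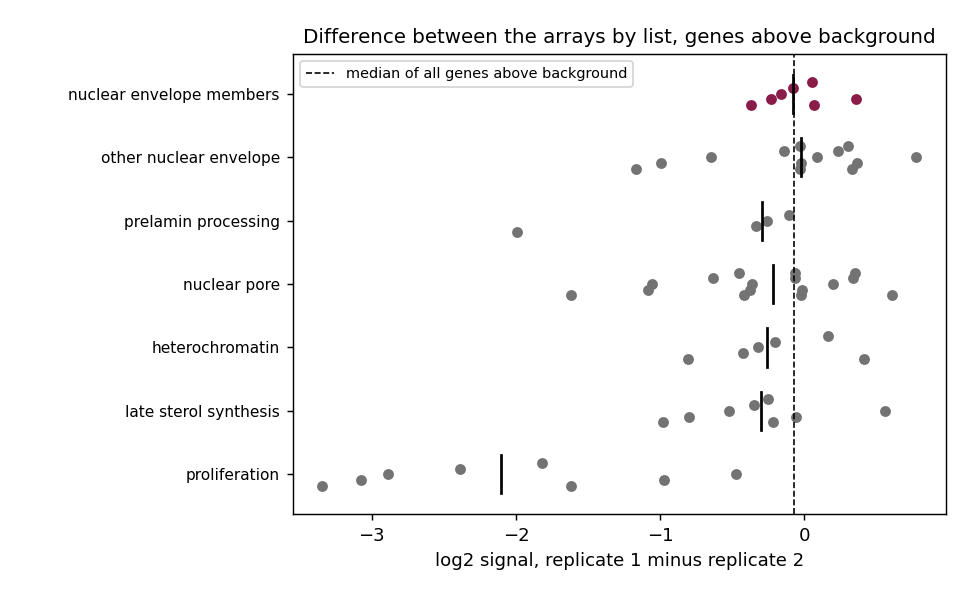
Difference in log2 signal, replicate 1 minus replicate 2, of each gene above background (points, brightest probe set), by list, with the median of each list as a black bar and that of all genes above background (-0.072) as a dashed line. The 7 nuclear envelope members lie between -0.37 and 0.36, while the 8 proliferation genes lie below 0 with a median of -2.10, on the deposited scale.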

How the data were processed

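Total RNA (200 ng) of sorted marrow neutrophils was labelled with a 3' IVT kit for hybridisation to Affymetrix arrays, 1 in each experiment, per the labels' protocols. The deposited table holds linear signal intensities that the authors made with MAS5, as the submitters' processing notes say, with no version or settings stated. Equal trimmed means show that the arrays had been scaled to the same brightness, so every difference is relative to that scaling.

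Gene names came from the platform annotation at GEO, with 34958 probe sets of 1 gene, 932 of several genes and 9211 unnamed here. All 8 member gene identifiers were found in the NCBI gene table (GRCm38.p6), which gave the coordinates. Signals were floored at 1 and taken to log2, and a gene's level and difference are those of its brightest probe set, by mean log2 signal. Differences are replicate 1 minus replicate 2. The procedure was also run on simulated data with known changes, with background drawn independently for each array from the sensory receptor probe sets. Such a run cannot show how often background passes on both real arrays. On those, 2 of the 87 sensory receptor probe sets did. With 1 group of 2 arrays there was no test, no correlation across samples and no gene named for a like pattern. All member probe sets were named, and of each further list the first 4 measured genes and, where they were 4 or fewer, the exceptions to its majority call. The rule also covers the proliferation and cell marker lists, which are given mostly as counts and sums. The members and lists were chosen with earlier results of these data known. Python 3.11.15, pandas 2.3.3, numpy 2.4.6 and matplotlib 3.10.9 were used. The alternatives were other background limits and lists, other scalings, 32 added to the signal, leaving out _x_at and _s_at probe sets, the mean over probe sets, no filter on background, and each array alone.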

Additional observations from a re-analysis of the deposited data

How the results depend on the processing

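The number of nuclear envelope genes above background was 7 and ranged from 6 to 8 over its alternatives, and that of their probe sets was 12 and ranged from 11 to 13. Leaving out a replicate gave 7 to 8 genes and 12 to 13 probe sets, Lmnb2 being called without replicate 1, and 13 to 15 of the 17 other nuclear envelope genes. That list of 17 gave 13 genes above background and 8 when each gene was the mean of its probe sets, where fewer of all genes were called as well (5642 against 7354). The median difference of the members, -0.074, turned to 0.055 with median scaling and 0.65 with scaling to the 18 hybridisation control probe sets, an alternative chosen after seeing the data. These 2 scalings multiply each array by 1 factor, so they move all genes alike and change no call. The number of member genes over 2-fold different was 0, and 1 without a filter on background (Lmnb2) and 1 with scaling to the hybridisation controls (Lmnb1). Over all genes above background, 145 passed 2-fold in favour of replicate 1 and 252 in favour of replicate 2. These counts were 235 and 163 with median scaling and 1555 and 33 with the hybridisation controls. No paired analysis was possible because there is 1 group. Signals near background limit what can be said of Lmna and Lmnb2.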
